A study of Saccharomyces cerevisiae with 28 samples.

Results

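The galactose step of the wild-type (WT) strain in YPA medium was examined: the 0h culture, which had received galactose for 30 min, was set against the pre_shift culture, which had not. The step was chosen by the sample titles and comprises 4 of the 28 samples of the series, a ribosome footprint library and an mRNA library from each culture. Both stages were grown at 25 °C with 2% raffinose, and the 0h culture also had 2% galactose. Both cultures were of the strain YWG1245 (YAJ3), for which the labels give no genotype, and cycloheximide was added to both just before harvest. The series as a whole concerned yeast depleted of eIF4G, and its other strain, 4Gts, went through the same step and is used below only for comparison. There was 1 culture at each stage, so no test was possible, and every difference below describes these libraries.

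Yeast takes up galactose through a permease and converts it to glucose-6-phosphate by the Leloir pathway, whose genes the activator Gal4 switches on. Without galactose the repressor Gal80 holds Gal4 inactive, and the sensor Gal3 lifts that hold when galactose is present. Raffinose neither induces nor strongly represses these genes, so cells in raffinose can respond quickly. A change of sugar can also touch 2 broad programmes of yeast: the genes that build ribosomes, which follow growth, and the stress and carbon reserve genes, which often run opposite to them.

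Depths inferred from whole-read steps among the low values were 2.72 M reads (0h) and 3.28 M reads (pre_shift) for mRNA, and 5.11 M (0h) and 5.58 M (pre_shift) for footprints. A gene of 1 kb at 10 RPKM (read density for each kilobase of a gene, relative to the depth of the library) therefore carries a counting error of 19.2% (0h) and 17.5% (pre_shift) in mRNA and of 13.98% (0h) and 13.4% (pre_shift) in footprints. Values are shares of a library, so a change in the total RNA or ribosomes of a cell would not show, and fewer cells that express a gene and less RNA of it per cell cannot be told apart. Changes are given as log2(RPKM + 1) of 0h minus pre_shift after scaling, and TE (translational efficiency) is the footprint level over the mRNA level of a culture. Of 6692 genes, 4731 averaged 10 RPKM or more over the YPA libraries of each kind and were kept. Of the a-cell mating genes, 7 of 7 were kept, and none of the 5 alpha-cell genes found in the files was.

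Among the genes kept, mRNA was at least 2-fold higher at 0h for 237 (5.01%) and at least 2-fold lower for 316 (6.68%). Footprints were at least 2-fold higher for 303 (6.4%) and at least 2-fold lower for 404 (8.54%). TE was at least 2-fold higher for 40 (0.845%) and at least 2-fold lower for 28 (0.592%). The nearest measure of error is the difference between replicates 2 and 1 of WT in SC medium at 36 °C, after 2 h and after 8 h. In the galactose step, either direction together, 11.7% of genes were past 2-fold in mRNA, 14.9% in footprints and 1.44% in TE. Between the SC replicates these shares were 13.0% and 13.9% in mRNA, 16.4% and 18.7% in footprints and 1.94% and 1.86% in TE, so the overall number of genes past 2-fold was no larger than between replicate cultures. The SC replicates also differed along gene groups, by a median of -2.01 and -1.99 for the mRNA of a-cell genes at 2 h and 8 h. Across 4268 genes, their mRNA differences correlated with the galactose step at r = 0.43 at both times, without any library in common. Replicate medians (2 h, then 8 h) are therefore given with the gene groups below. They cover only members that also passed the filter in SC, which for some lists are fewer than those kept, such as 9 of 15 phosphate genes.

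The galactose genes stood far above that background. GAL1, the galactokinase that starts the pathway, had 3727 RPKM of mRNA at 0h, against 16.2 at pre_shift, and 4297 RPKM of footprints, against 4.21. GAL7, the uridylyltransferase, had 3400 RPKM of mRNA at 0h, against 6.81 at pre_shift, and 3671 RPKM of footprints, against 3.96. GAL10, the epimerase, had 2212 RPKM of mRNA at 0h, against 5.45 at pre_shift, and 2037 RPKM of footprints, against 2.06. These genes had few reads before galactose: the estimated footprint reads at pre_shift were 36.7 for GAL1, 23.8 for GAL7 and 23.8 for GAL10. GAL2, the galactose permease, had 2608 RPKM of mRNA at 0h, against 5.93 at pre_shift, and 2082 RPKM of footprints, against 2.82. PGM2, the phosphoglucomutase that hands the product on to glycolysis, was already well expressed, with 1334 RPKM of mRNA at 0h, against 218 at pre_shift, and 1776 RPKM of footprints, against 241.

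On the log2 scale the mRNA differences were 8.74 for GAL7, 8.53 for GAL2, 8.40 for GAL10, 7.73 for GAL1 and 2.58 for PGM2. The 95% counting intervals are ± 0.58 for GAL7, 0.49 for GAL2, 0.46 for GAL10, 0.31 for GAL1 and 0.09 for PGM2, and they cover counting error only. Between the SC replicates, where both cultures had galactose, no mRNA of these 5 genes differed by more than 0.40 in size, the value of GAL1 at 8 h. As ratios of scaled RPKM, GAL1 mRNA was 224 times and GAL1 footprints 988 times the pre_shift level. The 5 genes together took 1.29% of all mRNA RPKM at 0h, against 0.0231% at pre_shift, and 1.15% of footprint RPKM, against 0.0195%. GAL7, GAL10 and GAL1 lie side by side on chromosome II of the R64 assembly, at 274427 to 275527, 276253 to 278352 and 279021 to 280607. GAL2 lies alone on chromosome XII, at 290212 to 291936.

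**Figure D1:**
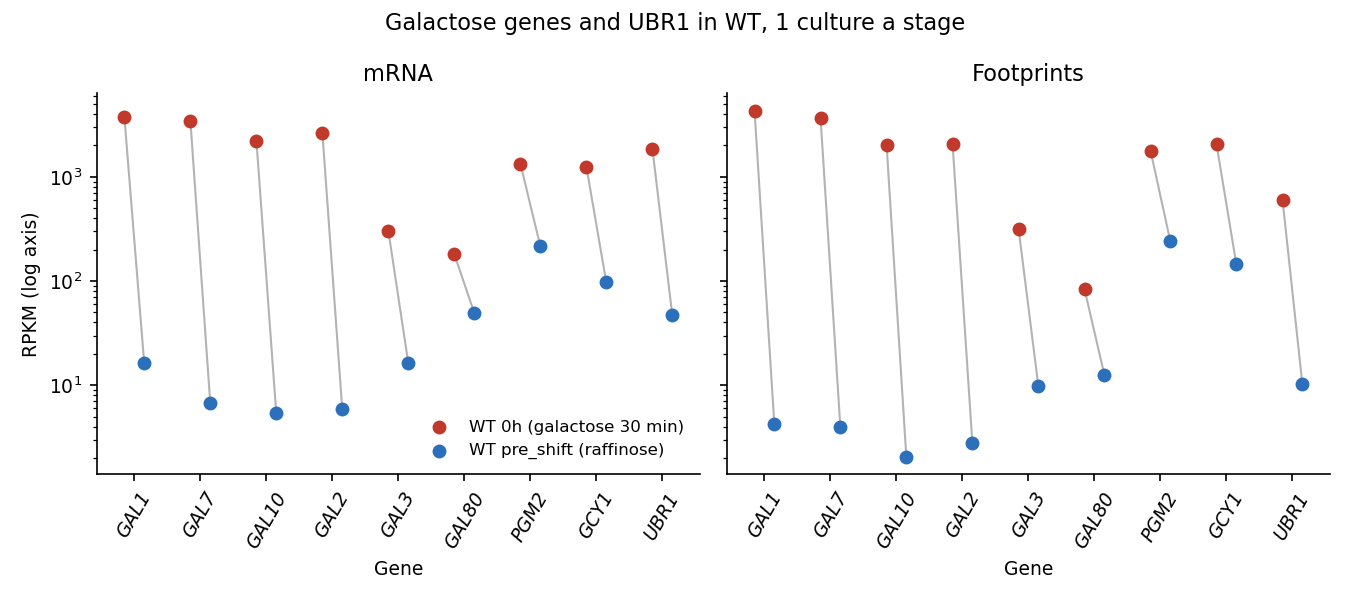
RPKM on a log axis of 9 genes in the WT 0h (galactose 30 min) and WT pre_shift (raffinose) libraries, mRNA on the left and footprints on the right. Each point is 1 library. GAL1, GAL7, GAL10 and GAL2 lie above 2000 RPKM at 0h and at or below 16.2 RPKM at pre_shift, while PGM2 starts at 218 RPKM of mRNA.

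The regulators of the pathway differed by less than GAL1, GAL2, GAL7 and GAL10. GAL3, the sensor, had 300.1 RPKM of mRNA at 0h, against 16.5 at pre_shift, and 318 RPKM of footprints, against 9.82, which are log2 differences of 4.07 and 4.85. GAL80, the repressor, had 180 RPKM of mRNA at 0h, against 49.5 at pre_shift, and 83.2 RPKM of footprints, against 12.6, or 1.81 and 2.59 on the log2 scale. GAL4, the activator itself, did not pass the filter and was nearly level, with 17.7 RPKM of mRNA at 0h, against 13.8 at pre_shift, and 3.55 RPKM of footprints, against 3.66. In mRNA the order was thus GAL7, GAL2, GAL10 and GAL1, then GAL3, then PGM2, then GAL80, with GAL4 lowest.

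Of 5 other genes reported as Gal4 targets, 4 were kept, and all 4 had at least 2-fold more footprints at 0h, against 6.4% of all genes. FUR4, the member not kept, had fewer footprints at 0h and is described under Other observations. GCY1, an aldo-keto reductase, had 1243 RPKM of mRNA at 0h, against 97.9 at pre_shift, and 2042 RPKM of footprints, against 145. PCL10, a cyclin of the kinase Pho85 that acts on glycogen synthase, had 101 RPKM of mRNA at 0h, against 31.6 at pre_shift. MTH1, a repressor of hexose transporter genes, had 276 RPKM of mRNA at 0h, against 132 at pre_shift. LAP3, an aminopeptidase also known as GAL6, had 334 RPKM of mRNA at 0h, against 166 at pre_shift. The log2 mRNA differences were 3.62 for GCY1, 1.61 for PCL10, 1.03 for MTH1 and 0.97 for LAP3. PCL10 and MTH1 also differed between SC replicates, by up to 1.08 and 0.78, while GCY1 differed by at most 0.33 in size there.

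UBR1, an E3 ligase that marks proteins for breakdown by their first residue, came next in mRNA and in footprints after GAL1, GAL7, GAL10 and GAL2. Its mRNA differed by 5.22 and its footprints, with 595 RPKM at 0h against 10.3 at pre_shift, by 5.69. In degron strains UBR1 is commonly placed under a galactose promoter, but the labels do not say how it is driven here. RAD6, the ubiquitin-conjugating partner of UBR1, had 93.8 RPKM of mRNA at 0h, against 115 at pre_shift. Marker genes of auxotrophic strains differed by less than 2-fold: URA3 had 146 RPKM of mRNA at 0h against 153 at pre_shift, HIS3 65.8 against 79.9, LEU2 128 against 92.5 and TRP1 115 against 97.2. LYS2, of lysine synthesis, had 64.7 RPKM of mRNA at 0h, against 103 at pre_shift. Of the eIF4G genes, TIF4632 was level in mRNA, with 81.8 RPKM at 0h against 82.7 at pre_shift. TIF4631 differed by -0.96, and the SC replicates differed by -0.72 and -0.62 in the same gene.

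Among glucose-sensing and repression genes, 10 of 15 were kept and none was past 2-fold in mRNA, footprints or TE, with a median mRNA difference of 0.21, and of -0.06 and -0.17 between the SC replicates. HXK2, the hexokinase that also acts in glucose repression, had 2559 RPKM of mRNA at 0h, against 2890 at pre_shift. SNF1, the kinase that releases repression, had 156 RPKM at 0h against 130 at pre_shift, and MIG1, the repressor it acts on, 56.1 against 63.6. Hexose transporters moved apart from each other. HXT2, a high-affinity transporter, had 492 RPKM of mRNA at 0h against 909 at pre_shift, and 273 RPKM of footprints at 0h against 542 at pre_shift. HXT6 had 112 RPKM of mRNA at 0h against 65.7 at pre_shift, and HXT7 had 230 against 292, but these near-identical genes share reads and their split is uncertain. SUC2, the invertase that splits sucrose and raffinose, had 4621 RPKM of mRNA at 0h, against 2187 at pre_shift, a difference of 1.04. HXT13, a hexose transporter paralog, differed by 3.29 in mRNA on few reads, with 21.4 RPKM at 0h against 1.28 at pre_shift. The other 7 transporters of the list did not pass the filter. The 5 members kept had a median of 0.72 in mRNA, and the SC replicates differed in the same direction by 0.41 and 0.87. Only 3 of them had an SC value, and 1 of the 3 differed by more in the step than in both SC pairs, against 39.8% of all genes.

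General stress genes, targets of the activators Msn2 and Msn4, were higher as a group. Of 33 members kept, 28 were at least 2-fold higher in mRNA and 28 in footprints, against backgrounds of 5.01% and 6.4% of all genes, and none was lower. Their median mRNA difference was 1.90, against 0.01 over all genes kept, and their share of mRNA RPKM was 2.27% at 0h, against 0.781% at pre_shift. HSP12, a small membrane chaperone, had 269 RPKM of mRNA at 0h, against 30.0 at pre_shift. DDR2, a stress protein, had 629 RPKM of mRNA at 0h, against 96.3 at pre_shift. FMP16, a mitochondrial protein, had 154 RPKM of mRNA at 0h, against 13.0 at pre_shift, and SPI1, a cell wall protein, had 177 against 36.1. The SC replicates differed in the same direction by a median of 0.68 and 0.66. The mRNA difference of 31 of the 33 members was larger in size than both SC replicate differences of the same gene, as it was for 39.8% of all genes with an SC value.

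Genes of gluconeogenesis, the glyoxylate cycle and ethanol or acetate use, which glucose represses, had a median of 1.62 in mRNA and 2.08 in footprints. Of 15 kept, 11 were at least 2-fold higher in mRNA and 12 in footprints, against 5.01% and 6.4% of all genes. FBP1, the fructose bisphosphatase of gluconeogenesis, had 58.2 RPKM of mRNA at 0h, against 3.29 at pre_shift. PCK1, the carboxykinase that opens gluconeogenesis, had 44.5 RPKM of mRNA at 0h, against 7.15 at pre_shift, and IDP2, a cytosolic isocitrate dehydrogenase, 86.9 against 13.8. PCK1 mRNA differed by 2.45 in the step, and by 1.15 and 1.23 between the SC replicates. IDP2 mRNA differed by 2.54 in the step, and by 2.44 and 2.08 between the SC replicates. IDP2 footprints differed by 3.21 in the step, and by 3.30 and 3.14 between the SC replicates. The SC replicates differed in the same direction by medians of 0.91 and 0.65 in mRNA and of 1.295 and 1.31 in footprints. Trehalose and glycogen genes followed with a median of 0.95 in mRNA, and the SC replicates differed by 0.31 and 0.36 in mRNA. Of 16 kept, 8 were at least 2-fold higher in mRNA and 11 in footprints, against 5.01% and 6.4% of all genes. GPH1, glycogen phosphorylase, had 1030 RPKM of mRNA at 0h against 341 at pre_shift, and GSY2, glycogen synthase, had 353 against 133. GDB1, the debranching enzyme, had 265 RPKM at 0h against 79.1 at pre_shift, and TSL1, of the trehalose synthase complex, had 270 against 89.6. Genes that make and genes that break down glycogen were therefore both higher.

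RGI2, a protein of respiratory growth, and DSF1, a protein related to mannitol dehydrogenases, complete the largest mRNA differences. RGI2 had 499 RPKM of mRNA at 0h, against 33.8 at pre_shift, and DSF1 had 122 against 8.85. RGI2 differed by 3.81 in the step, and by 2.80 and 3.22 between the SC replicates, and DSF1 by 3.61 in the step, and by 1.72 and 1.82 between the SC replicates.

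Energy genes shifted by smaller amounts. All 34 genes of the respiratory chain and ATP synthase had a difference above 0 in mRNA and in footprints, with medians of 0.40 and 0.43, and the SC replicates differed by 0.09 and 0.09 in mRNA and by 0.28 and 0.33 in footprints. In mRNA 2 of the 34 were at least 2-fold higher, a share near the 5.01% of all genes. CYC7, the minor isoform of cytochrome c, had 336 RPKM of mRNA at 0h, against 112 at pre_shift, and NDI1, the internal NADH dehydrogenase, 417 against 200.1. CYC7 mRNA differed by 1.55 in the step, and by 1.36 and 1.88 between the SC replicates. All 72 mitochondrial ribosomal protein genes were likewise above 0 in both layers, with medians of 0.41 and 0.47 and none past 2-fold. MRPL28 had 266 RPKM of mRNA at 0h against 134 at pre_shift, and MRPL32 had 321 against 167. Over all genes kept, 2385 of 4731 were above 0 in mRNA. The SC replicates differed by -0.02 and 0.06 in the median mRNA of the mitochondrial ribosomal proteins. TCA cycle genes had a median of 0.67 in mRNA, against 0.37 and 0.22 between the SC replicates, and 15 of 16 were above 0. SDH4, a succinate dehydrogenase subunit, had 414 RPKM at 0h against 193 at pre_shift.

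Glycolysis and fermentation genes took 6.89% of mRNA RPKM at 0h, against 5.93% at pre_shift. Of 18 kept, 3 were at least 2-fold higher in mRNA, against 5.01% of all genes. Their median mRNA difference was 0.21, and the SC replicates differed by -0.41 and -0.45. GLK1, glucokinase, had 2990 RPKM of mRNA at 0h against 1274 at pre_shift, ENO1, an enolase, 914 against 368, and TDH1, a glyceraldehyde phosphate dehydrogenase, 275 against 128. ENO1 and TDH1 have close paralogs, so reads may be shared. TDH1 mRNA differed by 1.07 in the step, and by 1.38 and 1.64 between the SC replicates. All 33 proteasome genes were above 0, with a median of 0.34 in mRNA and none past 2-fold, and the SC replicates differed the other way, by -0.43 and -0.37. PRE8 had 368 RPKM at 0h against 203 at pre_shift and RPN12 had 286 against 184.

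**Figure D2:**
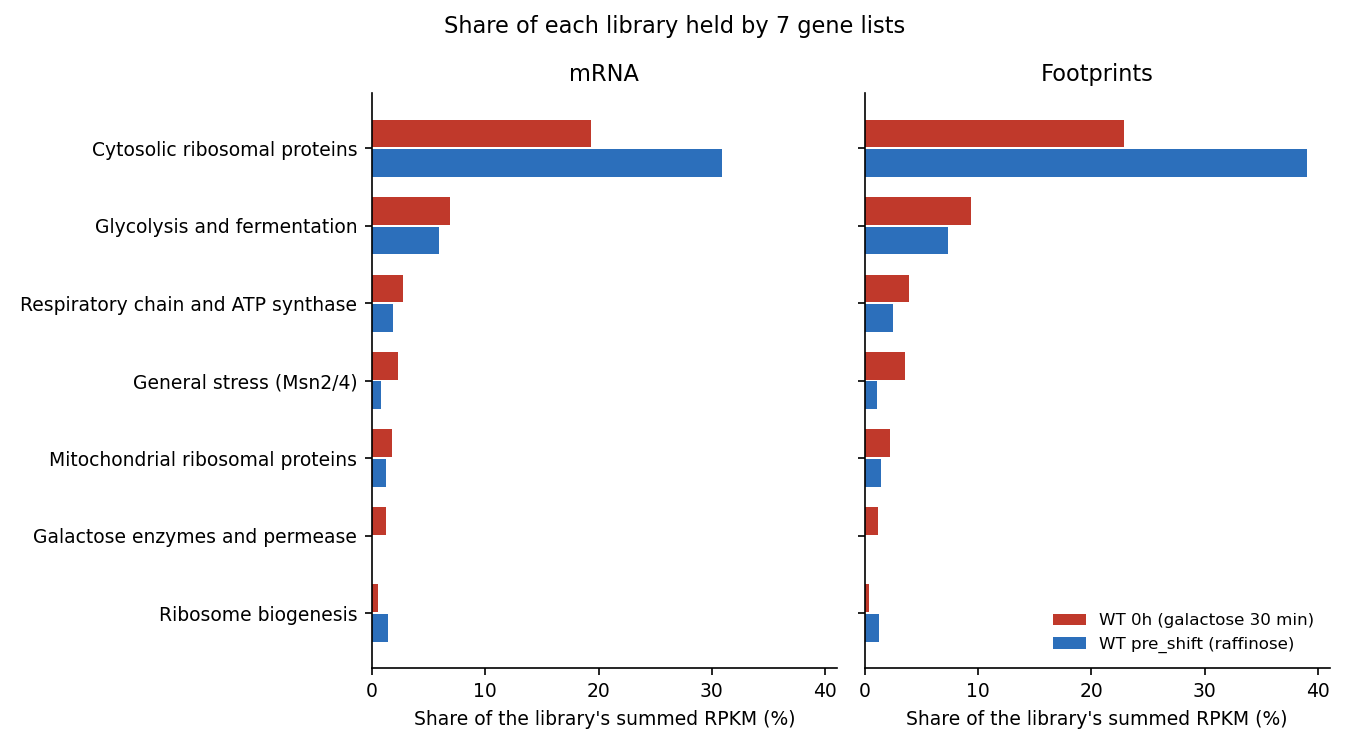
Share of a library's summed RPKM, in percent, held by 7 gene lists in WT 0h (galactose 30 min, upper bars) and WT pre_shift (raffinose, lower bars), mRNA on the left and footprints on the right. Cytosolic ribosomal proteins held 19.4% of mRNA RPKM at 0h and 30.9% at pre_shift, while the other lists held less than 10% each.

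The genes that build ribosomes were lower at 0h. Of 134 ribosome biogenesis genes kept, 115 were at least 2-fold lower in mRNA and 128 in footprints, against backgrounds of 6.68% and 8.54%, and none was above 0 in either. Their median was -1.55 in mRNA, -1.88 in footprints and -0.32 in TE. Together they held 0.572% of mRNA RPKM at 0h, against 1.46% at pre_shift, and 0.412% of footprint RPKM, against 1.26%. The SC replicates differed by -0.55 and -0.53 in the median mRNA of this list. Of 119 members with an SC value, 115 differed by more in mRNA than in either SC replicate pair, as did 39.8% of all genes with an SC value.

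NSR1, a nucleolin-like protein of the nucleolus, had 131 RPKM of mRNA at 0h, against 503 at pre_shift. CGR1, which acts in large subunit maturation, had 11.9 RPKM of mRNA at 0h, against 73.1 at pre_shift, and LTV1, of the small subunit, had 9.08 against 53.4. RIX1, of pre-60S maturation, had 9.67 RPKM of mRNA at 0h against 59.7 at pre_shift, FAF1, of the small subunit, had 2.87 against 19.8, and HCA4, a DEAD-box helicase of rRNA processing outside the list, had 14.2 against 69.6. UTP23, of the small subunit processome, had 11.5 RPKM of footprints at 0h against 90.7 at pre_shift. SYO1, an import partner of ribosomal proteins, had 5.17 RPKM of footprints at 0h against 39.1 at pre_shift. PXR1, which acts in rRNA and snoRNA maturation and was outside the list, had the largest negative mRNA difference among genes with at least 50 estimated reads in the higher library, -3.42 ± 1.45 by counting, with 1.85 RPKM at 0h against 28.6 at pre_shift.

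RNA polymerase I and III subunits, which transcribe the stable RNAs, had a median of -1.15 in mRNA, against -0.60 and -0.48 between the SC replicates. Of 20 kept, 12 were at least 2-fold lower, against 6.68% of all genes. RPA190, the largest subunit of polymerase I, had 48.4 RPKM of mRNA at 0h against 216 at pre_shift, and RPA135 had 41.0 against 183. RPA49 had 44.2 RPKM at 0h against 180 at pre_shift, and RPA43 had 43.9 against 130. These 4 subunits all belong to polymerase I. TOD6, a repressor of ribosome biogenesis genes, was itself lower, with 5.17 RPKM of mRNA at 0h against 32.1 at pre_shift. Elsewhere, AAH1, adenine deaminase, had 22.9 RPKM of mRNA at 0h against 163 at pre_shift, and URA7, a CTP synthase, had 37.5 against 219. AAH1 differed by -2.82 in the step and by up to -0.92 between SC replicates, and URA7 by -2.55 in the step and by up to -1.97 between SC replicates. RFU1, an inhibitor of a deubiquitinase, had 4.70 RPKM of footprints at 0h against 33.5 at pre_shift.

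Cytosolic ribosomal protein genes were lower nearly without exception, by less than the biogenesis genes. Of 138, 137 were below 0 in mRNA, with a median of -0.83 and quartiles of -0.96 and -0.68. In mRNA 19 were at least 2-fold lower, against 6.68% of all genes. Footprints had a median of -0.96, and 52 were at least 2-fold lower, against 8.54% of all genes. Because these mRNAs are abundant, their share was the largest in the libraries: 19.4% of mRNA RPKM at 0h, against 30.9% at pre_shift, and 22.9% of footprint RPKM, against 39.1%. The SC replicates differed by more, with medians of -1.32 and -1.30 in mRNA. In mRNA 6 of the 138 genes differed by more in the step than in both SC pairs, against 39.8% of all genes with an SC value. The difference of this group is therefore within the range seen between replicates. It also depended on the scaling, since quantile normalization gave medians of -0.48 in mRNA and -0.59 in footprints. RPL8B had 955 RPKM of mRNA at 0h against 2369 at pre_shift, RPP2B 1458 against 3131, RPS22A 1725 against 3642 and RPL9A 1057 against 2320. Most of these genes have a near-identical paralog, so their reads are split with some uncertainty.

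Initiation factors had a median of -0.60 in mRNA, and 2 of 30 were at least 2-fold lower and 1 higher, shares near or below the 6.68% and 5.01% of all genes. TIF3, the yeast eIF4B, had 148 RPKM of mRNA at 0h against 353 at pre_shift, SUI1, the start-codon factor eIF1, 488 against 925, and RLI1, the ribosome recycling factor, 105 against 210. DBP1, a helicase paralogous to DED1, went the other way with 23.8 RPKM of mRNA at 0h against 10.03 at pre_shift. Its mRNA differed by 1.14 in the step, and by 1.22 and 1.17 between the SC replicates. Elongation and termination factors had a median of -0.50. YEF3, the fungal elongation factor, had 1526 RPKM at 0h against 3734 at pre_shift and EFB1 had 1749 against 3343. The SC replicates differed by -0.55 and -0.59 for initiation factors and by -0.79 and -0.83 for elongation factors, in the same direction and of like or larger size.

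**Figure D3:**
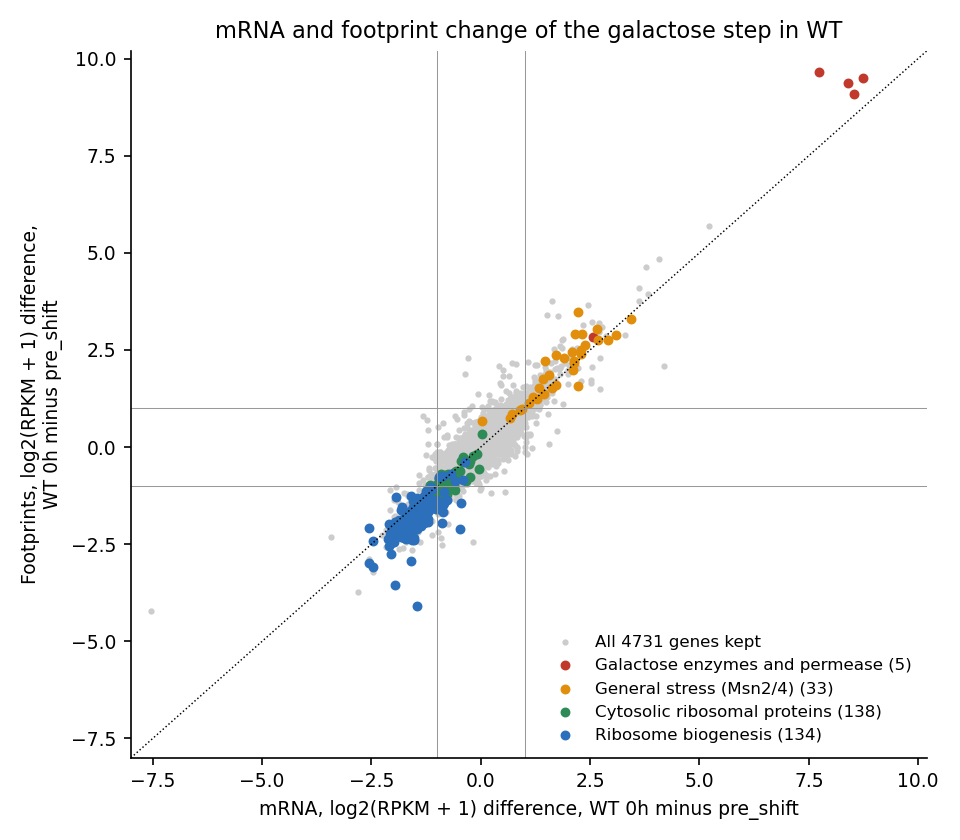
Footprint difference against mRNA difference, log2(RPKM + 1) of WT 0h minus pre_shift, for the 4731 genes kept, with 4 gene lists in colour. The dotted line marks equal differences and thin lines mark 2-fold. Galactose genes lie at the top right, general stress genes to the upper right, and ribosome biogenesis genes (blue) below the ribosomal protein genes (green) at the lower left.

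Biosynthetic lists were mixed. Gcn4-target genes of amino acid synthesis had a median of -0.48 in mRNA, of the same size as the -0.43 and -0.61 between the SC replicates, and 2 of 54 were at least 2-fold lower, a smaller share than the 6.68% of all genes. LEU9, of leucine synthesis, had 36.1 RPKM of mRNA at 0h against 140 at pre_shift, LYS4, of lysine synthesis, 43.7 against 99.7, CPA1, of arginine synthesis, 63.9 against 88.6, and HOM3, aspartate kinase, 102 against 181. Methionine and sulfate genes had a median of 0.69, with 6 of 19 at least 2-fold higher, against 5.01% of all genes. Over the 14 members with an SC value, the SC replicates differed the other way, by medians of -0.26 and -0.39. In mRNA 5 of these 14 differed by more in the step than in both SC pairs, against 39.8% of all genes with an SC value. STR3, of methionine synthesis, had 51.6 RPKM of mRNA at 0h against 6.90 at pre_shift, MET3, the ATP sulfurylase, 43.5 against 17.4, and MET13, a folate reductase, 75.8 against 36.6. MET28, a transcription cofactor of these genes, had 19.6 RPKM of mRNA at 0h against 13.6 at pre_shift. MET28 mRNA differed by 0.47 in the step, and by 0.75 and 1.20 between the SC replicates. STR3 and MET3 had no SC value.

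Purine genes split, with a median of -0.15 in mRNA, against -0.68 and -0.66 between the SC replicates. IMD4 and GUA1, which lead to GMP, had 74.2 against 267 and 99.7 against 296 RPKM of mRNA (0h against pre_shift), and PRS1, which makes the ribose donor, had 122 against 258. ADE17, of the last steps to IMP, had 43.3 RPKM at 0h against 9.93 at pre_shift. Phosphate genes had a median of -0.11, against -0.39 and -0.47 between the SC replicates. Of 15 kept, 2 were at least 2-fold lower in mRNA, against 6.68% of all genes. PHO3, an acid phosphatase, had 46.9 RPKM at 0h against 98.8 at pre_shift. PHO11 and PHO12, near-identical acid phosphatases, had 12.2 against 30.1 and 27.0 against 42.8.

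The heat shock chaperones had a median of 0.21 in mRNA, against 0.25 and 0.03 between the SC replicates. Of 23 kept, 1 was at least 2-fold higher in mRNA and 1 lower, shares near or below the 5.01% and 6.68% of all genes. SSE2 had 91.4 RPKM of mRNA at 0h against 29.6 at pre_shift and BTN2 had 82.8 against 44.5. SSB1, the ribosome-bound Hsp70, had 602 RPKM of mRNA at 0h against 1245 at pre_shift. BTN2 mRNA differed by 0.85 in the step, and by 0.87 and 1.52 between the SC replicates. SSB1 mRNA differed by -1.08 in the step, and by -1.28 and -1.45 between the SC replicates. Iron genes had a median of 0.07, against 0.52 and 0.20 between the SC replicates. Of 17 kept, 1 was past 2-fold in mRNA, a share near the 5.01% higher among all genes. It was FIT2, a cell wall mannoprotein of siderophore uptake, with 888 RPKM at 0h against 391 at pre_shift. FIT2 differed by 1.15 in the step, and by 1.57 and 1.03 between the SC replicates. No gene of ergosterol synthesis, histones or the G1/S list was past 2-fold in mRNA, footprints or TE, with median mRNA differences of -0.15, -0.40 and -0.28. Between the SC replicates these medians were -0.39 and -0.41 for ergosterol, -0.05 and 0.22 for histones and 0.27 and 0.12 for G1/S genes. ERG25 had 494 RPKM of mRNA at 0h against 704 at pre_shift, ERG3 291 against 404, the histone genes HTA2 574 against 933 and HHF1 825 against 1206. TOS4, a G1/S regulator, had 41.9 RPKM at 0h against 79.1 at pre_shift and POL1, a DNA polymerase subunit, 35.5 against 54.0. In the G2/M and M/G1 list, with a median of 0.13, against -0.75 and -0.68 between the SC replicates, the cell wall gene PIR3 was past 2-fold in TE, on 4.60 RPKM of mRNA at 0h against 6.09 at pre_shift.

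**Figure D4:**
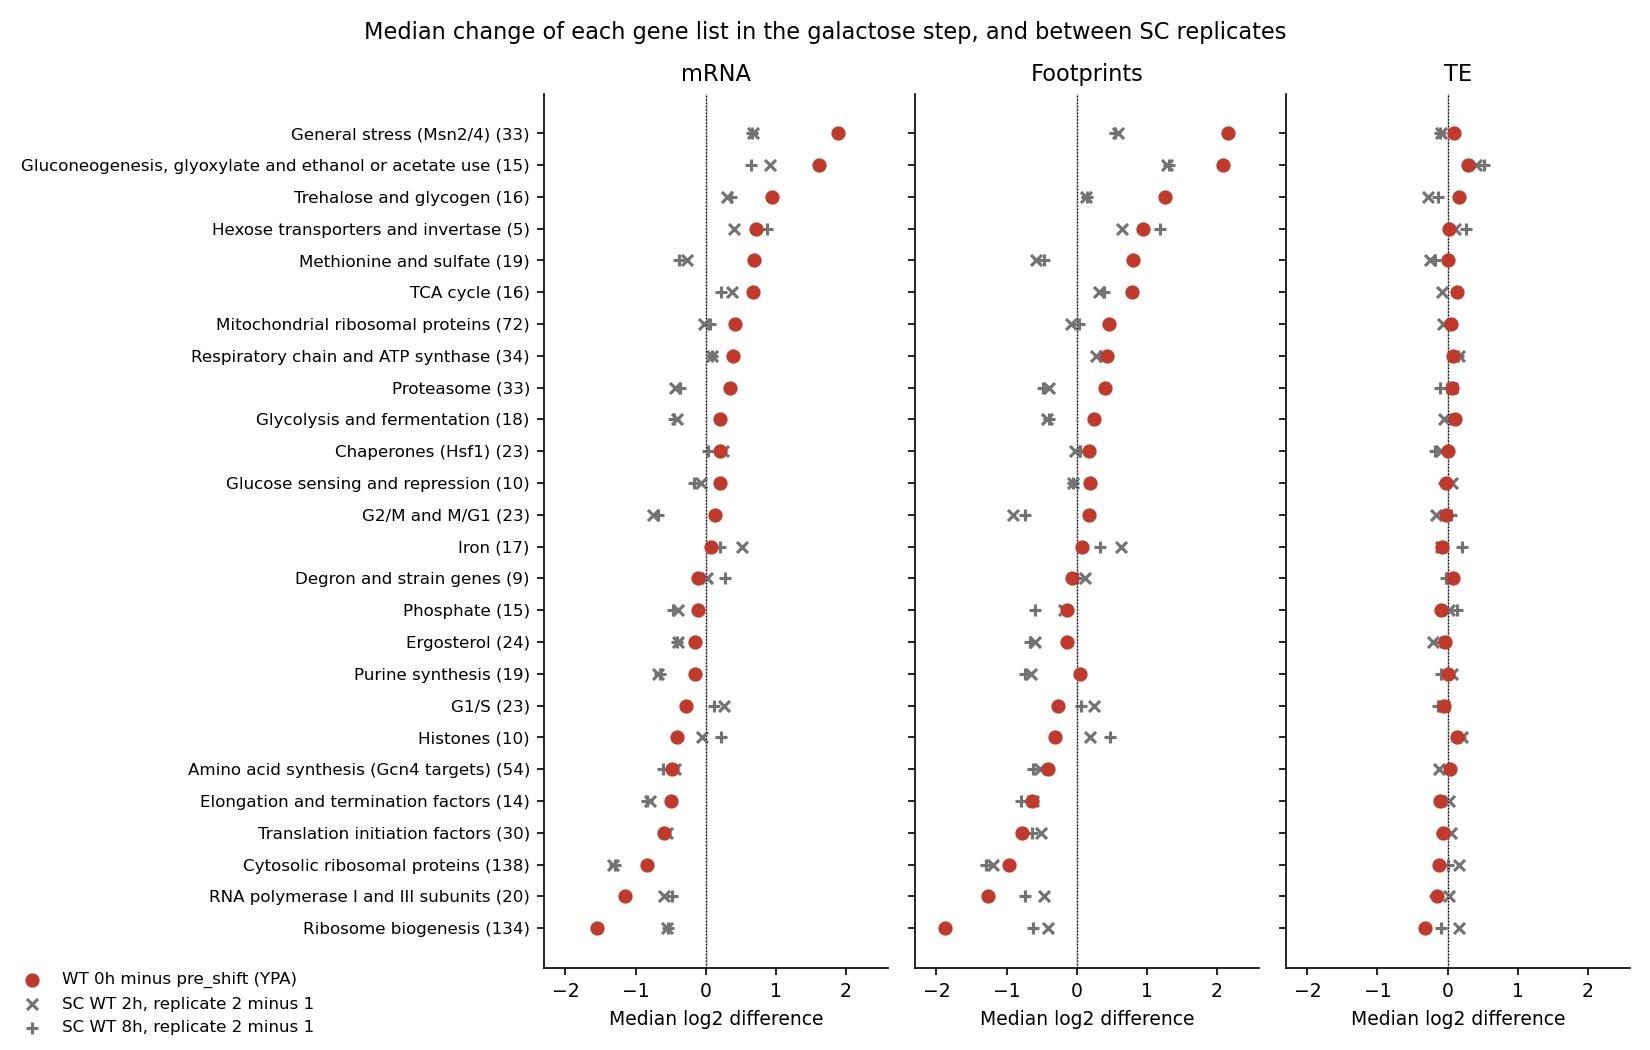
Median log2 difference of each gene list with at least 5 genes kept, except the galactose enzymes, in the WT galactose step (red) and between replicates 2 and 1 of SC WT at 2 h (crosses) and 8 h (plus signs), for mRNA, footprints and TE. Numbers of genes kept are in brackets, and the SC medians cover only those of them with an SC value. Ribosome biogenesis at -1.55 and general stress at 1.90 lie beyond their replicate differences in mRNA, while the cytosolic ribosomal proteins at -0.83 do not.

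Footprints followed mRNA closely. Across the 4731 genes the mRNA and footprint differences had r = 0.92 (Spearman's rho 0.88), a description over genes of the same cultures. Of 237 genes at least 2-fold higher in mRNA, 210 (88.6%) were so in footprints, which is 69.3% of the 303 higher in footprints. Of 316 at least 2-fold lower in mRNA, 278 (88.0%) were so in footprints, which is 68.8% of the 404. The median absolute difference was 0.35 in mRNA, 0.38 in footprints and 0.16 in TE.

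In WT the galactose genes had more footprints per mRNA at 0h. TE, scaled, was 1.20 at 0h against 0.312 at pre_shift for GAL1, 0.955 against 0.485 for GAL10, 1.12 against 0.656 for GAL7 and 0.828 against 0.567 for GAL2. The log2 TE differences were 1.94 ± 0.56 for GAL1, 0.98 ± 0.74 for GAL10, 0.77 ± 0.82 for GAL7 and 0.55 ± 0.74 for GAL2, each with its 95% counting interval. With 1 RPKM added, the intervals of GAL7 and GAL2 include 0. Their widths come from reads without that addition, which understates differences of low genes, so this reading is not firm. As ratios of scaled RPKM without it, footprints and mRNA were 897 and 487 times the pre_shift level for GAL7. For GAL2 they were 714 and 429 times. GAL3 and GAL80 had TE differences of 0.77 ± 0.45 and 0.79 ± 0.39. UBR1 had 0.47 ± 0.18, but the SC replicates differed by -0.38 and -0.55 in its TE, and quantile normalization gave 0.00. With 1 RPKM added, GAL1 was the only gene of the 5 past 2-fold in TE. Without it, GAL10 was past 2-fold too, with scaled RPKM ratios of 960 in footprints and 396 in mRNA.

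Among the genes with at least 50 estimated reads in each of the 4 libraries, ICL1, isocitrate lyase of the glyoxylate cycle, had the largest positive TE difference, 2.14 ± 0.49, and the SC replicates also differed in it, by 1.54 and 1.91. It had 80.6 RPKM of mRNA at 0h against 25.0 at pre_shift, and 93.1 RPKM of footprints at 0h against 5.82 at pre_shift. HBT1, a protein of mating projections, followed with 1.59, on 53.0 RPKM of mRNA at 0h against 14.5 at pre_shift and 43.9 RPKM of footprints at 0h against 3.31 at pre_shift. SPI1 had 1.26, on 286 RPKM of footprints at 0h against 23.96 at pre_shift. All 3 of these genes were also higher in mRNA. Others had more footprints on mRNA that differed by less than 2-fold: YMR181C had 79.3 RPKM of footprints at 0h against 21.0 at pre_shift, ARO9, an aromatic aminotransferase, 34.8 against 8.90, COX5B, a cytochrome c oxidase isoform, 62.5 against 25.9, and RCI37 38.0 against 17.4. SHR5, of a palmitoyltransferase, EKI1, ethanolamine kinase, and YUR1, a mannosyltransferase, had TE differences of 1.22, 1.10 and 0.95 with less mRNA at 0h.

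On the negative side DBP2, a DEAD-box RNA helicase, had the largest TE difference, -2.63 ± 0.23. Its mRNA was 91.7 RPKM at 0h against 249 at pre_shift, and its footprints were 16.1 RPKM at 0h against 280 at pre_shift. YGR079W, a gene with no name in the table used, had level mRNA, 76.8 RPKM at 0h against 85.6 at pre_shift, with 10.3 RPKM of footprints at 0h against 58.6 at pre_shift. NSR1 had 53.9 RPKM of footprints at 0h against 627 at pre_shift, a TE difference of -1.59 ± 0.22, while the SC replicates differed by -1.43 and -0.79 in the same direction. The rest of the 10 largest negative TE differences were smaller in size, with JIP5 at -1.43, NAF1, of snoRNP assembly, at -1.24, EFG1, of rRNA maturation, at -1.19, UTP11, of the small subunit processome, at -1.08 and MRD1, of rRNA processing, at -1.07 among genes with less mRNA at 0h. RGL1 at -1.32 and the short reading frame YLR146W-A at -1.16 had more mRNA at 0h. Of all 28 genes at least 2-fold lower in TE, 5 were in the ribosome biogenesis list, 3 of them with at least 50 estimated reads in every library. None of the 40 higher was in it, which is near its share, since the list holds 134 of the 4731 genes kept. Of the 28 lower genes, 12 had at least 50 estimated reads in every library, and of the 40 higher genes 8 had.

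The differences past 2-fold were mostly larger in size than the SC replicate differences of the same gene, but they were picked for their size, and over all 4268 genes with an SC value this held for 39.8% in mRNA, 40.9% in footprints and 29.5% in TE. Of the genes at least 2-fold higher in mRNA, 221 had an SC value, and 187 of them (84.6%) differed by more than both SC replicate pairs. Of those at least 2-fold lower, 275 had an SC value, and 243 (88.4%) differed by more. For footprints these were 234 of 290 (80.7%) and 297 of 362 (82.0%), and for TE 33 of 35 higher and 23 of 23 lower. The SC libraries were made in another medium and at 36 °C, so this is a yardstick and not an error of the step.

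The same step in 4Gts shares no library with WT and gave much the same order of genes in mRNA and footprints, with 1 culture a stage. The mRNA differences of WT and 4Gts had r = 0.83, those of footprints 0.89 and those of TE 0.20, over 4731 genes. Of the 237 genes at least 2-fold higher in WT mRNA, 184 (77.6%) were so in 4Gts, which is 55.6% of the 331 in 4Gts. Of the 316 at least 2-fold lower in WT mRNA, 146 (46.2%) were so in 4Gts, which is 66.1% of the 221 in 4Gts. In footprints the shared genes were 244 (80.5% of WT, 58.9% of 4Gts) higher and 289 (71.5% of WT, 84.8% of 4Gts) lower. In TE, 9 of 40 higher genes and 7 of 28 lower genes in WT were past 2-fold the same way in 4Gts. Over all genes kept, the shares higher and lower in 4Gts were 7.0% and 4.67% in mRNA. They were 8.75% and 7.21% in footprints, and 1.25% and 1.06% in TE.

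By group, WT and 4Gts had median mRNA differences of -1.55 and -1.04 for ribosome biogenesis, 1.90 and 1.95 for general stress, 1.62 and 1.35 for gluconeogenesis and related genes, and -0.83 and -0.70 for cytosolic ribosomal proteins. The median TE differences for ribosome biogenesis were -0.32 in WT and -0.46 in 4Gts. UBR1 mRNA differed by 5.22 in WT and 5.12 in 4Gts, and GAL3 by 4.07 and 4.10. GAL1, GAL2, GAL7 and GAL10 had larger mRNA differences in WT than in 4Gts, and GAL1 mRNA had 3727 RPKM at 0h against 16.2 at pre_shift in WT, and 3754 RPKM at 0h against 35.3 at pre_shift in 4Gts. Among the TE differences, DBP2 had -2.63 in WT and -2.83 in 4Gts, NSR1 -1.59 and -1.31, ICL1 2.14 and 2.02, HBT1 1.59 and 2.01, SPI1 1.26 and 1.44, COX5B 0.98 and 1.10 and ARO9 1.17 and 1.02. YMR181C had 1.31 in WT and 1.52 in 4Gts, and NAF1 -1.24 and -1.59. Several other TE differences were smaller in 4Gts or of opposite sign. GAL1 had 1.94 in WT and 0.47 in 4Gts, GAL10 0.98 and 0.01 and GAL2 0.55 and -0.37, while GAL7 had 0.77 and 0.86. JIP5 had -1.43 in WT and -0.29 in 4Gts, RCI37 1.02 and 0.19, YUR1 0.95 and 0.02, EKI1 1.10 and -0.20 and YLR146W-A -1.16 and 0.35. SHR5 had 1.22 in WT and 0.32 in 4Gts, UTP11 -1.08 and -0.32 and EFG1 -1.19 and -0.46. Whether any of these differ between the strains was not tested.

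**Figure D5:**
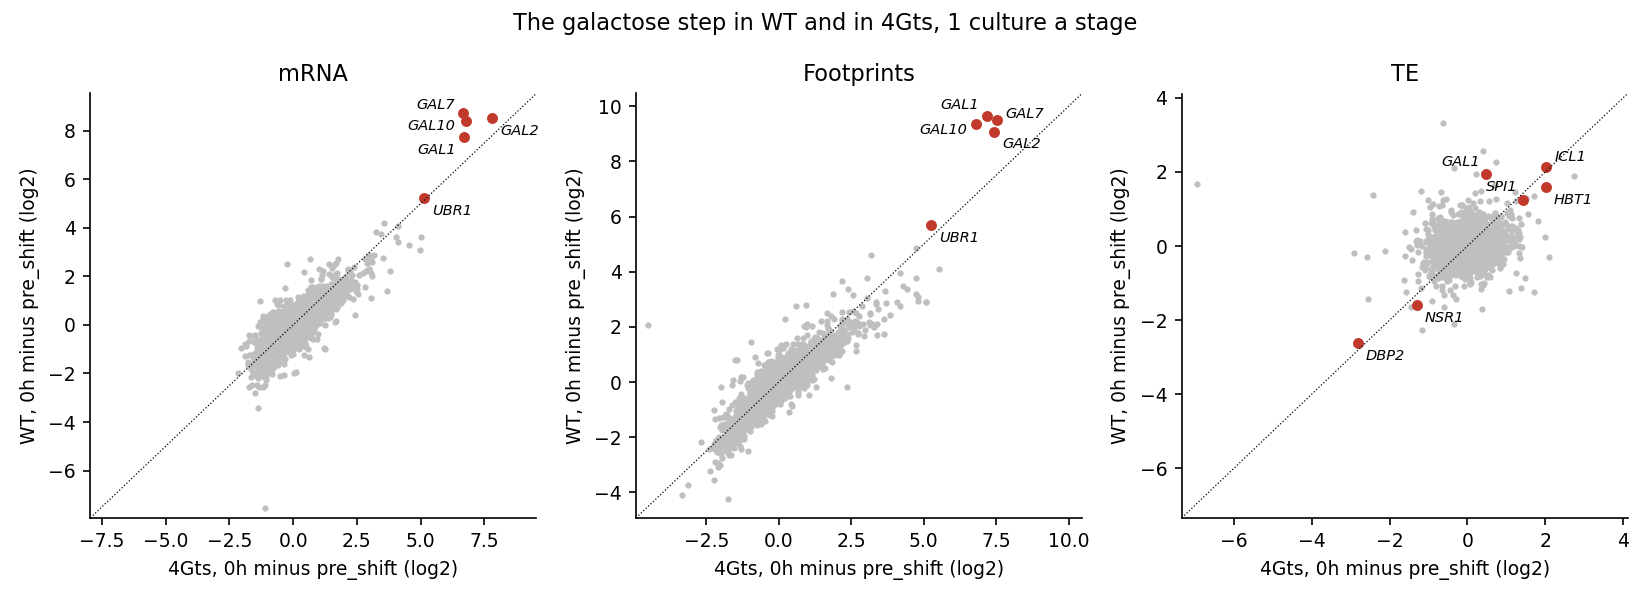
Log2 differences of 0h minus pre_shift in WT (vertical axis) against 4Gts (horizontal axis), 1 culture a stage, for mRNA, footprints and TE over the 4731 genes kept. The dotted line marks equal differences. The mRNA and footprint points follow the line (r = 0.83 and 0.89), the TE points do so weakly (r = 0.20), and DBP2, NSR1, ICL1, HBT1 and SPI1 lie near it.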

How the data were processed

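Footprints and mRNA of the WT YPA cultures were analysed. Per the labels' protocols, footprints came from lysate treated with RNase, and mRNA libraries from rRNA-depleted, fragmented and size-selected total RNA. The submitters' processing notes name TopHat, DESeq and the build sacCer3. Versions, annotation, counting rule and use of strand were not given in the sources used here, so reads of overlapping or antisense genes cannot be told apart. The authors deposited RPKM values, 1 column per library, and TE as a linear ratio. The deposited YPA ratio equals footprint over mRNA RPKM times a constant per culture, 1.42 at 0h and 1.44 at pre_shift, over 4218 genes.

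Names and coordinates came from a RefSeq table of R64, the assembly behind sacCer3, which matched 6008 of 6692 genes and 4678 of 4731 kept. Low RPKM values gave whole reads within 0.05 reads, after shortening genes by 24 nt, for 95.5% to 96.8% of low values in the 4 libraries, which gave the depths. Estimated reads use gene spans with introns and are too high for genes with introns. As values are RPKM and each stage has 1 culture, no count test was run. Libraries were scaled, within each YPA table, by their median ratio to the average library, and log2(RPKM + 1) was used, which understates differences of low genes. The value was 0 in every YPA library for 371 genes. No column was left unmapped (0). The calls were checked on simulated data that held counting error only. Variation between cultures was not simulated, so the check does not cover the spread seen between replicates. Alternatives were other scalings, pseudocounts, filters and the deposited TE.

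Genes named were the members of the galactose, hexose and strain lists, the 10 largest differences in each direction of each layer with at least 50 estimated reads in the higher library (for TE in all 4), and for other lists up to 4 members past 2-fold, or otherwise 2. Any gene outside the rule is marked. Members and lists were chosen with earlier results of these data known. Promoter sequences were not analysed here. Python 3.11.15, numpy 2.4.6, pandas 2.3.3 and matplotlib 3.10.9 were used.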

Additional observations from a re-analysis of the deposited data

How the results depend on the processing

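With no filter, 360 genes were at least 2-fold higher in mRNA, against 237, since more low genes were counted. The TE counts moved most. Against 40 genes higher in TE, there were 24 with a pseudocount of 5 RPKM, 169 with no filter, 8 with at least 50 estimated reads in each library and 14 with the authors' deposited TE. Against 28 lower, there were 15, 103, 12 and 16 under the same settings. The share of genes higher among those past 2-fold in TE was 58.8%, against 40.0% with at least 50 reads and 46.7% with the deposited TE. The other 35 of 44 counts were within 1.5 times. Of 15 list medians past 2-fold, none turned sign or came under 2-fold in 105 values from the alternatives. Quantile normalization gave medians of -0.48 in mRNA and -0.59 in footprints for cytosolic ribosomal proteins, against -0.83 and -0.96, of 0.28 in footprints for mitochondrial ribosomal proteins, against 0.47, and of -0.22 in mRNA for histones, against -0.40. With no filter the hexose transporter and invertase list had a median of 0.14 in mRNA, against 0.72. Of 125 values of named genes past 2-fold, none turned sign, and 22 of 855 values came under 2-fold, among them the footprints of RPS22A (-0.76) and EFB1 (-0.46) with quantile normalization. The cause was not tested. The TE difference of GAL1 was 1.45 with a pseudocount of 5, against 1.94, and that of UBR1 was 0.00 with quantile normalization, against 0.47. The median TE difference of the galactose enzymes and permease was 0.87 with a pseudocount of 0.1 and 0.50 with 5, against 0.77. Without scaling the median of all genes was 0.04 in mRNA and 0.06 in footprints, against 0.01 in each. No paired analysis was possible because there was 1 culture at each stage. Depth limits the galactose genes at pre_shift and genes near 10 RPKM.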

Other observations

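FUR4, the uracil permease gene among the other reported Gal4 targets, did not pass the filter. It had 0.827 RPKM of footprints at 0h against 8.33 at pre_shift, while its mRNA was 22.6 RPKM at 0h against 18.1 at pre_shift. It lies next to GAL1 on chromosome II, at 281443 to 283344. Its footprint difference was -2.43 in WT and -0.65 in 4Gts. HXT5, also below the filter, had 12.5 RPKM of mRNA at 0h against 2.79 at pre_shift, and the SC replicates differed by 4.49 and 4.11 in this gene.

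The following genes were chosen after their values were seen. The reading frame YBL039C-A, with no name in the table used, was listed at 0 in mRNA at 0h, against 178 RPKM at pre_shift, and had 9.71 RPKM of footprints at 0h against 193 at pre_shift. PAI3, a proteinase inhibitor, had a TE difference of -1.23 in WT and 1.71 in 4Gts, on 78.5 RPKM of footprints at 0h against 26.2 at pre_shift in WT, and PUS5, a pseudouridine synthase, had 1.49 and -1.19. The reading frames YGL204C, YHR073W-A, YHR180W-A, YIL156W-A and YJL077W-A were also past 2-fold in TE in opposite directions in WT and 4Gts, and these differences between strains were not tested. SNZ1, a vitamin B6 gene, had a TE difference of 2.57 in WT and 0.41 in 4Gts, on 13.4 RPKM of mRNA at 0h against 16.2 at pre_shift.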
